A study of Homo sapiens with 9 samples.

Results

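The genes described here are the ligands and receptors of the tumour necrosis factor (TNF) superfamily, measured in T47D, a luminal human breast cancer cell line with progesterone receptor. Members were taken by name. They are the genes with a probe set annotated to a single symbol that starts with TNFSF or TNFRSF, with TNF, LTA, LTB, CD40 and CD70 added. That gave 33 genes of 18417 with a single-symbol probe set on the array, 13 of them ligands and 20 receptors. CD40LG, which the rule also asks for, had no single-symbol probe set in the annotation used. Where a gene had several probe sets, the brightest by its mean on the 9 arrays was used.

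TNF superfamily ligands are mostly membrane proteins that work as trimers, and proteases can release some of them from the cell. Their receptors either carry a death domain, which can start apoptosis through FADD and caspase-8, or recruit TRAF adaptors, which lead to NF-kappaB and kinase signalling; decoy receptors bind ligand without that signal. In the mammary gland the best known member is RANKL, encoded by TNFSF11, a paracrine mediator of progesterone that acts on neighbouring cells through RANK (TNFRSF11A) and is bound by the soluble decoy osteoprotegerin (TNFRSF11B).

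All cells carried the retroviral vector pHUSH, whose hairpin RNA, switched on by doxycycline, targets ELF5, an ETS transcription factor of the mammary alveolar lineage. The cells were kept under puromycin in serum-containing medium with insulin. Each of the 3 groups had 3 arrays, and each array held RNA of cells pooled from 3 wells: ethanol vehicle alone, the synthetic progestin ORG2058 at 10 nM for 4 days, and the same progestin treatment together with doxycycline at 0.1 µg/ml, also for 4 days. The labels give no time for the vehicle cells, no array batch, and no group with doxycycline alone or with another hairpin, so effects of the drug and of the hairpin cannot be told apart, nor can time or batch where they follow the groups. The series text calls the experiments independent. Comparisons that share a group also share its arrays.

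Values are log2 levels of a probe set, and a change is a difference of group means on that scale. A gene was called when its Benjamini-Hochberg adjusted p, over 21214 probe sets with a gene symbol, was under 0.05 in limma's moderated test. Exact permutation of 3 and 3 arrays gives no p below 0.1 and was not used. Medians of the arrays lay between 7.19 and 7.28. All 8 luminal markers looked up (ESR1, PGR, KRT8, KRT18, KRT19, GATA3, FOXA1 and EPCAM) lay above the median level of all probe sets. Of 8 measured leukocyte markers 1 did, CD14, and 0 of the 8 were called in any comparison. Of all probe sets 29.0% were called with progestin against vehicle and 0.0189% with doxycycline added to progestin. For progestin plus doxycycline against vehicle that share was 28.1%. The leukocyte list's mean level per array was 5.53 to 5.79 with vehicle, 5.68 to 5.80 with progestin and 5.38 to 5.67 with doxycycline added. Of 6 stromal and endothelial markers 2 lay above the median level, COL1A1 and CDH5. COL1A1 was lower and PECAM1 and CDH5 higher with progestin (50.0% of the list called, against 29.0% of all probe sets). The list's mean level per array was 6.59 to 6.88, 6.70 to 6.76 and 6.58 to 6.71 in the same order of groups. Of the 33 family members 18 lay below the median level and 7 among the dimmest 25% of probe sets (TNF, TNFRSF11B, TNFRSF17, TNFRSF9, TNFSF13B, TNFSF18 and TNFSF4). The table holds no detection calls, so whether these 7 genes are transcribed here was not tested.

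ELF5, the hairpin's target, checks the labels. It stood at 10.26, 10.21 and 10.05 on the vehicle arrays, at 11.31, 11.23 and 11.31 with progestin, and at 10.44, 10.46 and 10.35 with doxycycline added. The 3 groups did not overlap. Progestin raised it by 1.11 (SE 0.08, adjusted p = 2.06e-05) and doxycycline lowered it by 0.87 (log2 change -0.87, SE 0.08, adjusted p = 0.029). Leaving out single arrays gave adjusted p-values of 0.0263 to 0.149 for that drop, which was under 0.05 only without vehicle replicate 3.

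Promoter sequence was looked at for every member with a promoter entry, whether or not it moved. An interferon element was among the motifs because interferon-induced genes were also higher with progestin and TNFSF10 is a known interferon-responsive gene. RefSeq promoters (GRCh38.p14) were found for 22 of the 33 members, with 28 start sites, and the 250 bases before each start were searched on both strands. The motifs were GAAANNGAA, the core of an interferon-stimulated response element; TTCNNNGAA, a STAT site; ACANNNTGT, the core of the element shared by progesterone and glucocorticoid receptors; and GGANNTTCC, an NF-kappaB site. Shown here are the windows of 3 members that rose with progestin (TNFSF10, TNFSF15 and TNFRSF14) and of TNFSF9, which was not called on all 9 arrays but holds a match; capitals mark motif matches, the windows are written 5′ to 3′ on the gene's strand, and each ends at the base before the start.

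TNFSF10, chr3:172523431-172523680, minus strand: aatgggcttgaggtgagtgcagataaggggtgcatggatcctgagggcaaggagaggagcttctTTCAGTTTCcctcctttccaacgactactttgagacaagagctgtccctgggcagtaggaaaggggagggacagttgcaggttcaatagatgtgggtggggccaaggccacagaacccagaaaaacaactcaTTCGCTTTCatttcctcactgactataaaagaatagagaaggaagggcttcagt
TNFSF15, chr9:114792531-114792780, minus strand: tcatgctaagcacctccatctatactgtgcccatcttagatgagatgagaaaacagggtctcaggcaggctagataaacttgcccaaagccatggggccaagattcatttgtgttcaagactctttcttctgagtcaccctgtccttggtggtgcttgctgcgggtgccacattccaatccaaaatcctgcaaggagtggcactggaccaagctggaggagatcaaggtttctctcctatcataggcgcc
TNFRSF14, chr1:2556121-2556370, plus strand: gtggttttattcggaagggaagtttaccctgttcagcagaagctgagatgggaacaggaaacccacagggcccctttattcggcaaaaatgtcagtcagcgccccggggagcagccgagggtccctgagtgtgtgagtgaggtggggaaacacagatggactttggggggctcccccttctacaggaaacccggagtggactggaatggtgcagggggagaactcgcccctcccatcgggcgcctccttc
TNFSF9, chr19:6530776-6531025, plus strand: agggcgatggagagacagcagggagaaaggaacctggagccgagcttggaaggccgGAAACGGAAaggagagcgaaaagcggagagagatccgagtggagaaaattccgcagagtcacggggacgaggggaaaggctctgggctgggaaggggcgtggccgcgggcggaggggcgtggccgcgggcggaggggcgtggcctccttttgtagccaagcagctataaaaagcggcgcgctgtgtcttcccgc

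The TNFSF10 window holds 2 matches to the interferon element, both on the opposite strand, beginning 186 and 54 bases before the start. The TNFSF9 window holds 1, beginning 194 bases before it. TNFSF9, the ligand of 4-1BB, had levels of 8.11 ± 0.27 with vehicle and 8.25 ± 0.086 with progestin (mean ± SD, n = 3), a change of 0.14 (adjusted p = 0.467). Without vehicle replicate 3 the change was 0.30 and called (adjusted p = 0.028). In all, 4 of the 28 member windows held this motif, the others being those of TNFRSF1B and of the second of 2 TNFSF13B starts, against 6.88% of 35116 windows in the table. TNFRSF1B and TNFSF13B had changes with progestin of 0.12 and -0.01 (SE 0.20 and 0.22, adjusted p = 0.702 and 0.978). TNFSF15 and TNFRSF14 held none of the 4 motifs. The STAT site was in 6 member windows (6.57% of all windows), the NF-kappaB site in 3 (3.84%) and the progestin element core in 0 (4.61%). Windows of 1 gene overlap for LTA and LTB, so the 6 windows belong to 4 genes and the 3 to 2 genes. TNFSF11 has 2 RefSeq starts, of which the first has a STAT match 197 bases before it. A match is a run of letters, and whether any factor binds there was not measured. TNFRSF12A and TNFSF8 had no entry.

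Progestin against vehicle asks which family members respond to 4 days of hormone. Of the 33 members 5 rose and 0 fell: the ligands TNFSF10 (TRAIL), TNFSF15 (TL1A) and TNFSF8 (CD30 ligand), and the receptors TNFRSF12A (Fn14) and TNFRSF14 (HVEM). TNFSF10 and TNFSF15 rose 3.73-fold and 3.64-fold, the other 3 by 1.36-fold to 1.43-fold. The share of members called was 15.2%, against 29.0% of all probe sets; for rises alone it was 15.2% against 13.4%, and for falls 0% against 15.6%. The median change of the 33 was 0.12, beside 0.02 over all probe sets.

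**Figure D1:**
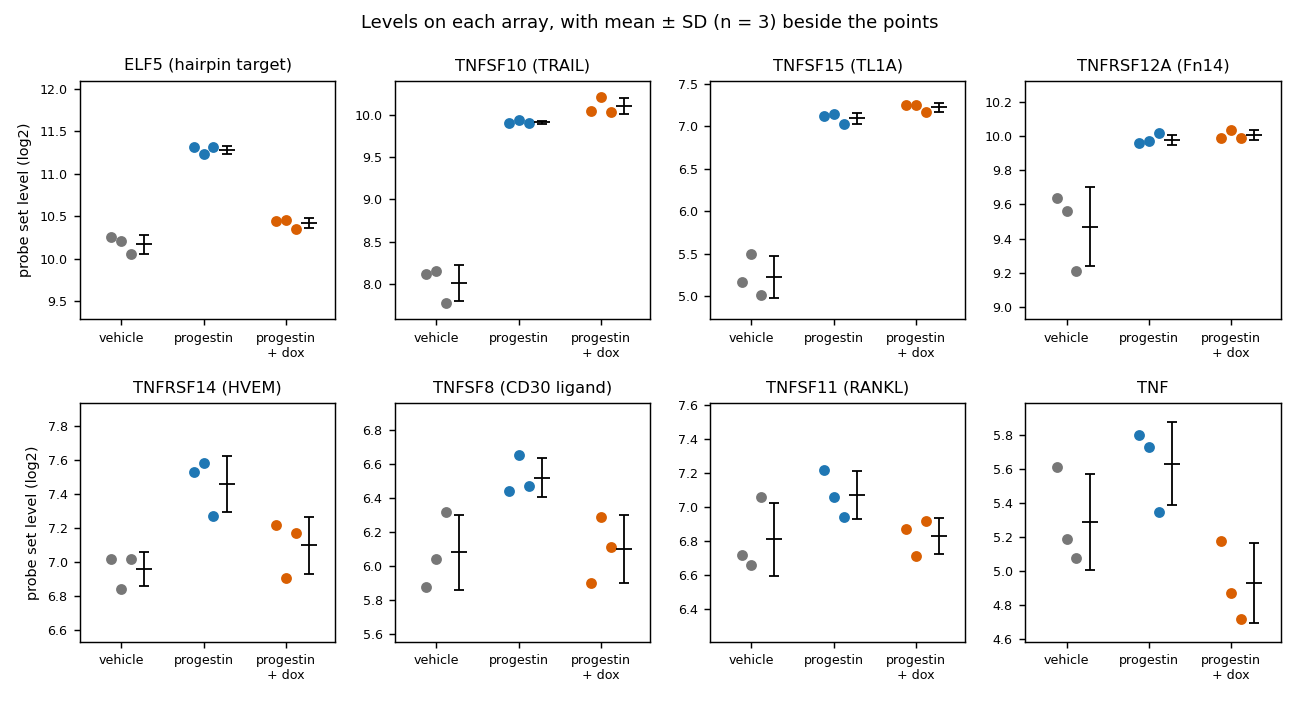
Probe set level (log2, vertical axis) on each of the 9 arrays for ELF5 and 7 family members, by group; each point is an array, with the mean and SD of the 3 arrays beside it. Vertical scales differ between panels. TNFSF10, TNFSF15 and TNFRSF12A are high in both progestin groups, whereas TNFRSF14 and TNFSF8 are highest with progestin alone.

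TNFSF10 encodes TRAIL, a ligand that can trigger apoptosis through death receptors. Its level was 8.12, 8.15 and 7.77 on the vehicle arrays, 9.90, 9.94 and 9.90 with progestin, and 10.05, 10.21 and 10.03 with progestin plus doxycycline. Every progestin array lay far above every vehicle array, and the doxycycline arrays lay slightly higher still. The change with progestin was 1.90 (SE 0.11, adjusted p = 7.37e-06). Beside it, 10 of 10 measured interferon-induced genes rose, with a median change of 4.84, where 13.4% of all probe sets were called higher. IFI44 rose by 5.85 and IFIT1 by 5.30 (SE 0.11 each), and OAS1 had a mean level of 6.05 with vehicle and 11.05 with progestin. Whether the rise of TNFSF10 shares a cause with theirs was not tested.

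None of the 3 TNFRSF10 receptors of TRAIL with a probe set of their own was called. TNFRSF10A and TNFRSF10B, the death receptors DR4 and DR5, went from 7.39 ± 0.232 to 7.39 ± 0.106 and from 7.73 ± 0.217 to 7.63 ± 0.157 (mean ± SD, n = 3). TNFRSF10D, a decoy receptor with a truncated death domain, had 7.57 ± 0.125 and 7.49 ± 0.11. For these 3 receptors the 95% intervals of the change with progestin were -0.32 to 0.32, -0.43 to 0.24 and -0.43 to 0.26, so changes of 2-fold lie outside them. The decoy TNFRSF10C shares its probe set with another symbol and was left out of the counts. That probe set had a change of -0.19 (SE 0.07, adjusted p = 0.0893), not called, with all progestin arrays below all vehicle arrays. Which symbol it followed cannot be told from it.

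TNFSF15 encodes TL1A, the ligand of the death-domain receptor DR3 and an inhibitor of endothelial growth. It stood at 5.17, 5.50 and 5.02 with vehicle, 7.12, 7.14 and 7.02 with progestin, and 7.25, 7.25 and 7.16 with doxycycline added. Vehicle arrays were low and all 6 progestin-treated arrays high, with no overlap. The change with progestin was 1.86 (SE 0.12, adjusted p = 1.29e-05). Its vehicle level is below 5.59, the bound of the dimmest 25% of probe sets. On the scale of log2(linear value + 16) the change was 1.51. DR3 itself, TNFRSF25, went from 9.03 ± 0.0911 to 8.94 ± 0.101 (mean ± SD, n = 3) and was not called (log2 change -0.09, SE 0.10). A further receptor, TNFRSF6B, shares its probe set with RTEL1 and was left out of the counts. That probe set had a change of -0.15 (SE 0.09, adjusted p = 0.295).

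TNFRSF12A encodes Fn14, the receptor of the cytokine TWEAK. Its values were 9.64, 9.56 and 9.21 with vehicle, 9.96, 9.97 and 10.02 with progestin and 9.99, 10.04 and 9.99 with doxycycline added. The vehicle arrays lay below all others, replicate 3 lowest. The change with progestin was 0.52 (SE 0.11, adjusted p = 0.0087). TWEAK is encoded by TNFSF12, whose probe set also carries the symbol TNFSF13 and that of their read-through transcript; this probe set rose by 0.49 (SE 0.12, adjusted p = 0.0188), and which of these transcripts it followed cannot be told from it.

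TNFRSF14 encodes HVEM, which binds the ligand LIGHT and the lymphocyte inhibitory receptor BTLA. It stood at 7.02, 6.84 and 7.02 with vehicle, 7.53, 7.58 and 7.27 with progestin, and 7.22, 6.91 and 7.17 with doxycycline added. The progestin arrays lay above both other groups, which overlapped each other. The change with progestin was 0.50 (SE 0.12, adjusted p = 0.0138); without vehicle replicate 2 it was 0.44 and no longer called (adjusted p = 0.0517). LIGHT, encoded by TNFSF14, went from 5.98 ± 0.227 to 5.66 ± 0.327 (mean ± SD, n = 3; log2 change -0.32, SE 0.27) and was not called.

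TNFSF8, the ligand of the lymphocyte receptor CD30, was at 5.88, 6.04 and 6.32 with vehicle, 6.44, 6.65 and 6.47 with progestin, and 5.90, 6.29 and 6.11 with doxycycline added. As for TNFRSF14, only the arrays with progestin alone stood apart from the vehicle arrays. Its change of 0.44 (SE 0.14, adjusted p = 0.0468) was the weakest of the 5 calls. The call was lost without vehicle replicate 1 or 2, without each of the 3 progestin arrays, or without progestin plus doxycycline replicate 3 (the highest adjusted p was 0.151), and with quantile normalization (0.0717) or when only the 2 groups were fitted (0.0593). CD30, encoded by TNFRSF8, stood at 6.79 ± 0.206 and 6.81 ± 0.164 with vehicle and progestin (mean ± SD, n = 3).

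**Figure D2:**
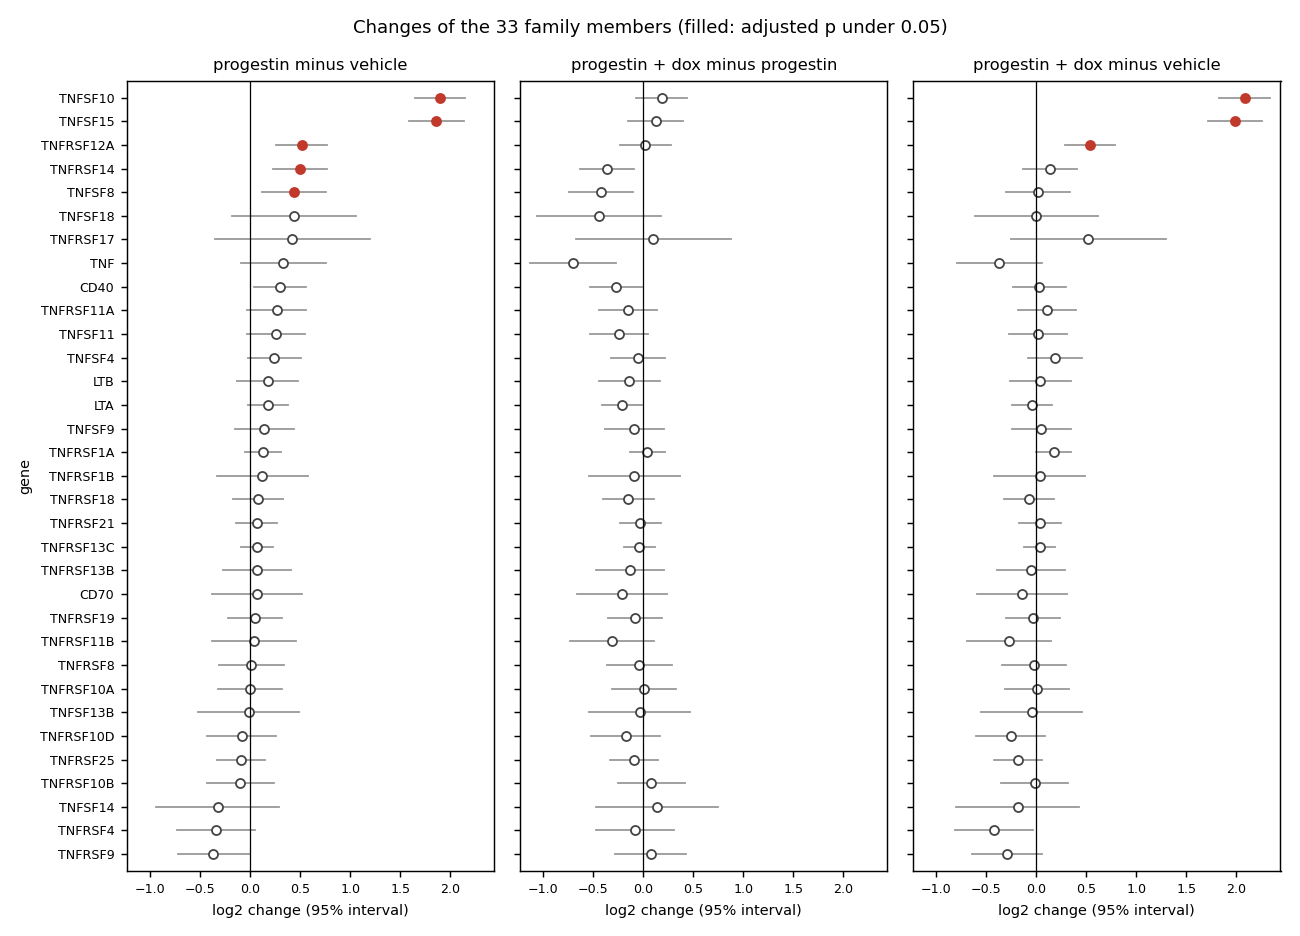
Log2 change (horizontal axis, with its 95% interval) of each of the 33 members in the 3 comparisons, ordered by the change with progestin; filled points have an adjusted p under 0.05. With progestin 5 members are filled, with doxycycline added to progestin 0, and with progestin plus doxycycline against vehicle 3.

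RANKL was not among the called genes. TNFSF11 stood at 6.72, 6.66 and 7.06 on the vehicle arrays, 7.22, 7.06 and 6.94 with progestin, and 6.87, 6.71 and 6.92 with doxycycline added. Vehicle replicate 3 lay within the progestin arrays, so these groups overlapped. The change with progestin was 0.26 (SE 0.12, 95% interval -0.03 to 0.55, adjusted p = 0.167), an interval that leaves out a 2-fold rise. Without vehicle replicate 3 it was 0.38 and called (adjusted p = 0.0343). Its receptor RANK (TNFRSF11A) was at 6.84 ± 0.0409 with vehicle and 7.11 ± 0.245 with progestin, and osteoprotegerin (TNFRSF11B) at 5.28 ± 0.273 and 5.31 ± 0.243 (mean ± SD, n = 3); neither was called (adjusted p = 0.163 and 0.903).

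Other genes known from the mammary progestin response moved both ways. WNT4, another paracrine mediator of progesterone, rose by 1.25 (SE 0.17, adjusted p = 0.00081). ELF5, described above, is the other gene of this list that rose. PGR, the progesterone receptor, fell by 2.28, the cell cycle gene CCND1 by 0.75 (SE 0.07 each) and ID2, an inhibitor of differentiation factors, by 0.51 (SE 0.15, adjusted p = 0.0337). The ID2 call was lost on leaving out a vehicle array (each of the 3) or progestin replicate 1 or 3, with adjusted p-values up to 0.103. These 2 rises and 3 falls are the calls among 7 measured genes of that list (71.4%, against 29.0% of all probe sets); WNT4 and ID2 are named after their values were seen.

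The 28 members not called had changes with progestin from -0.37 (TNFRSF9, the costimulatory receptor 4-1BB) to 0.44 (TNFSF18, the ligand GITRL), and for 26 of them the 95% interval stayed within 2-fold either way. Apart from the 5 called genes, 5 more had progestin arrays all above the vehicle arrays: CD40, LTA, TNFRSF11A, TNFSF18 and TNFSF4. This made 10 of 33 members above (30.3%) and 0 below, where 20.8% of all probe sets lay above and 21.5% below. Positive changes were found in 25 of 33 members (75.8%) and in 52.0% of all probe sets. Among the marker lists the share was 75.0% for leukocyte, 50.0% for stromal and endothelial and 37.5% for luminal markers. The CD40 change of 0.30 (adjusted p = 0.0834) was called without progestin replicate 1 (adjusted p = 0.0481). CD40 was also called when the dimmest 25% of probe sets were removed. TNFRSF9 was called lower without vehicle replicate 2 (log2 change -0.53, adjusted p = 0.0186) and with quantile normalization. The TNF receptors TNFRSF1A and TNFRSF1B had changes of 0.13 and 0.12 (SE 0.08 and 0.20), and TNF itself 0.33 (SE 0.19). TNFRSF1A was called higher with quantile normalization, and TNF with the replicate number as a block. The 3 probe sets of TNF held the same values, as did 3 of the 4 of LTB; the fourth LTB probe set had a change of 0.41 (adjusted p = 0.0525) and the others 0.18.

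Of 9 superfamily members that the name rule leaves out (FAS, FASLG, LTBR, NGFR, CD27, EDA, EDAR, EDA2R and RELT), 0 were called with progestin in limma's test; 2 had an unadjusted p under 0.05 (22.2%). Of all probe sets 29.0% were called and 39.0% had such a p. FAS, the death receptor of FAS ligand, went from 7.42 ± 0.0679 to 7.63 ± 0.13 (mean ± SD, n = 3; log2 change 0.21, SE 0.09, adjusted p = 0.144). NGFR and the ectodysplasin gene EDA had changes of 0.26 and 0.24 (SE 0.10 each).

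Downstream of the receptors, 9 of 17 measured adaptor and death signalling genes were called, 6 higher and 3 lower, with a median change of 0.27. The share called was 52.9%, against 29.0% of all probe sets, whose median change was 0.02. CFLAR, which encodes c-FLIP, the inhibitor of caspase-8 at death receptors, had the largest change, 0.78 (7.78 ± 0.106 to 8.56 ± 0.0844, mean ± SD, n = 3; adjusted p = 0.000371). TAB2, an adaptor of the kinase TAK1, rose by 0.60 (SE 0.06) and BIRC2, the ubiquitin ligase cIAP1, by 0.50 (SE 0.08). The deubiquitinase gene CYLD rose by 0.77 (SE 0.14), and the adaptors TRAF4 and TRADD by 0.41 and 0.39 (SE 0.08 each). BID, which links caspase-8 to mitochondria, fell by 0.34, TRAF3 by 0.33 (SE 0.08 each) and TRAF5 by 0.49 (SE 0.13). The TRAF3 call was lost without vehicle replicate 1 or 2 or progestin replicate 2 (adjusted p up to 0.0662), and the TRAF5 call without vehicle replicate 2 or 3 or progestin replicate 2 or 3 (up to 0.0671). CASP8 and FADD were not called, with changes of 0.27 and 0.06 (SE 0.14 and 0.07).

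**Figure D3:**
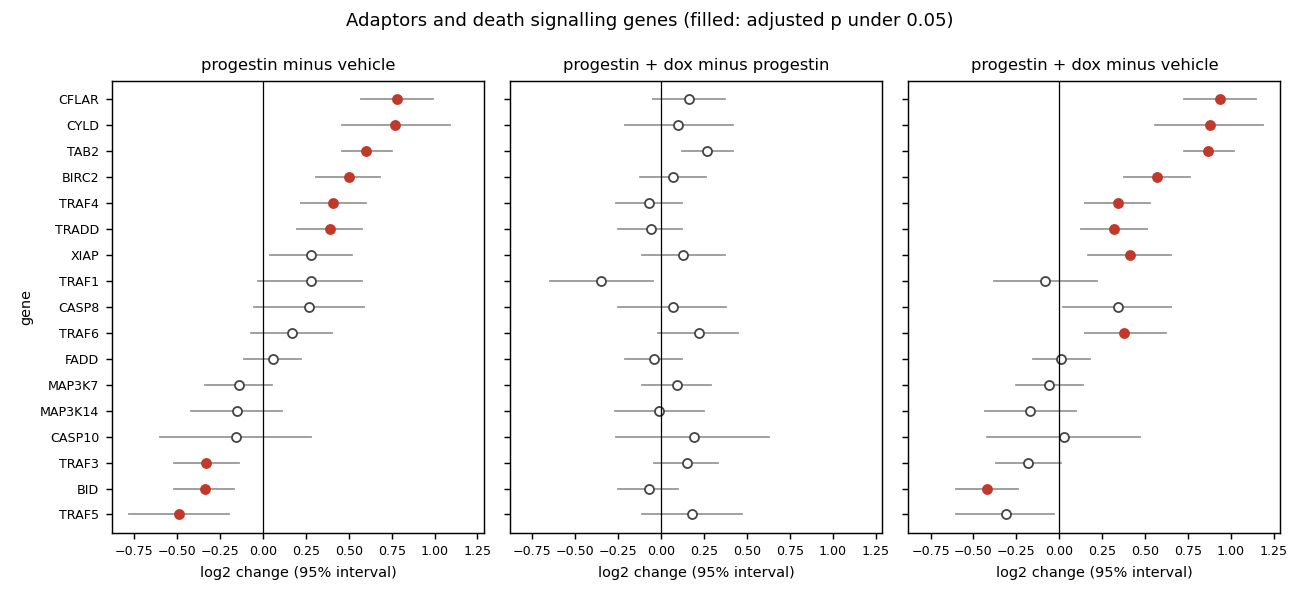
Log2 change (horizontal axis, with its 95% interval) of 17 adaptor and death signalling genes in the 3 comparisons; filled points have an adjusted p under 0.05. CFLAR, CYLD, TAB2, BIRC2, TRAF4 and TRADD are higher in both comparisons with vehicle, and 0 genes are filled with doxycycline added to progestin.

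Among 5 genes for the release of ligands from the cell surface, 3 fell and 1 rose, where 15.6% of all probe sets were called lower and 13.4% higher. The sheddases ADAM10 and ADAM17 fell by 0.39 (SE 0.07, adjusted p = 0.00366) and 0.57 (SE 0.11, adjusted p = 0.00663), and RHBDF2, the rhomboid-like partner of ADAM17, by 0.68 (SE 0.13, adjusted p = 0.00594). The related RHBDF1 rose by 0.24 (SE 0.07, adjusted p = 0.0316), a call that was lost on leaving out each vehicle array, the progestin arrays 1 and 3, and the first of those with doxycycline (the highest adjusted p was 0.103).

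Adding doxycycline to progestin asks what differs in the family between the progestin arrays and those with doxycycline, on which ELF5 was lower. In limma's test 0 of 33 members were called, where 4 of all probe sets were (0.0189%). An unadjusted p under 0.05 was found for 5 members, all lower with doxycycline: TNF, TNFRSF14, TNFSF8, LTA and CD40. That is 15.2% of the members, a share near that of all probe sets, of which 2969 of 21214 had such a p in either direction. The count of calls stayed at 0 under each of the 16 alternatives. The smallest adjusted p of a member was 0.177, for TNF.

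TNF, the cytokine that names the family, stood at 5.80, 5.73 and 5.35 with progestin and at 5.18, 4.87 and 4.72 with doxycycline added, after 5.61, 5.19 and 5.08 with vehicle. All 3 doxycycline arrays were below all 3 progestin arrays, while the vehicle arrays overlapped both. The change was -0.70 (SE 0.19, 95% interval -1.13 to -0.27). These are dim values, and the change on the scale of log2(linear value + 16) was -0.49.

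TNFRSF14 and TNFSF8, whose values were given above, had changes of -0.36 (SE 0.12, adjusted p = 0.246) and -0.42 (SE 0.14, adjusted p = 0.261) with doxycycline, and TNFSF11 of -0.24 (SE 0.12, adjusted p = 0.447). In all 3 the doxycycline arrays lay below the progestin arrays. LTA, encoding lymphotoxin alpha, was the remaining member with this pattern, at 6.67, 6.66 and 6.67 with progestin and 6.34, 6.41 and 6.62 with doxycycline (vehicle 6.54, 6.40 and 6.54). Both other LTA probe sets overlapped between these groups, with changes of -0.21 and 0.14 (SE 0.09 and 0.38). So 5 of 33 members lay below (15.2%, against 6.43% of all probe sets). TNFSF10 and TNFSF15 were the 2 that lay above (6.06%, against 14.8%), by 0.19 and 0.13 (SE 0.11 and 0.12, adjusted p = 0.499 and 0.687).

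Over the 33 members the median change with doxycycline was -0.09, and 24 were negative, against a median of 0.03 and 43.9% negative for all probe sets. With quantile normalization 27 members were negative, against 52.1% of all probe sets, and the members' median was -0.13. Leukocyte markers, which also lie low on these arrays, were negative in 7 of 8 cases with a median of -0.12. Probe sets below the middle level were negative in 51.9% of cases and those above it in 35.9%. With quantile normalization these shares were 52.2% and 52.0%. Of the 18 members below the middle level 14 were negative on either scale. The rest of the 24 and of the 27 negative members lay above it. Most members above the middle level were thus also negative on either scale. What part the level of a probe set has in the members' shift was not tested.

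**Figure D4:**
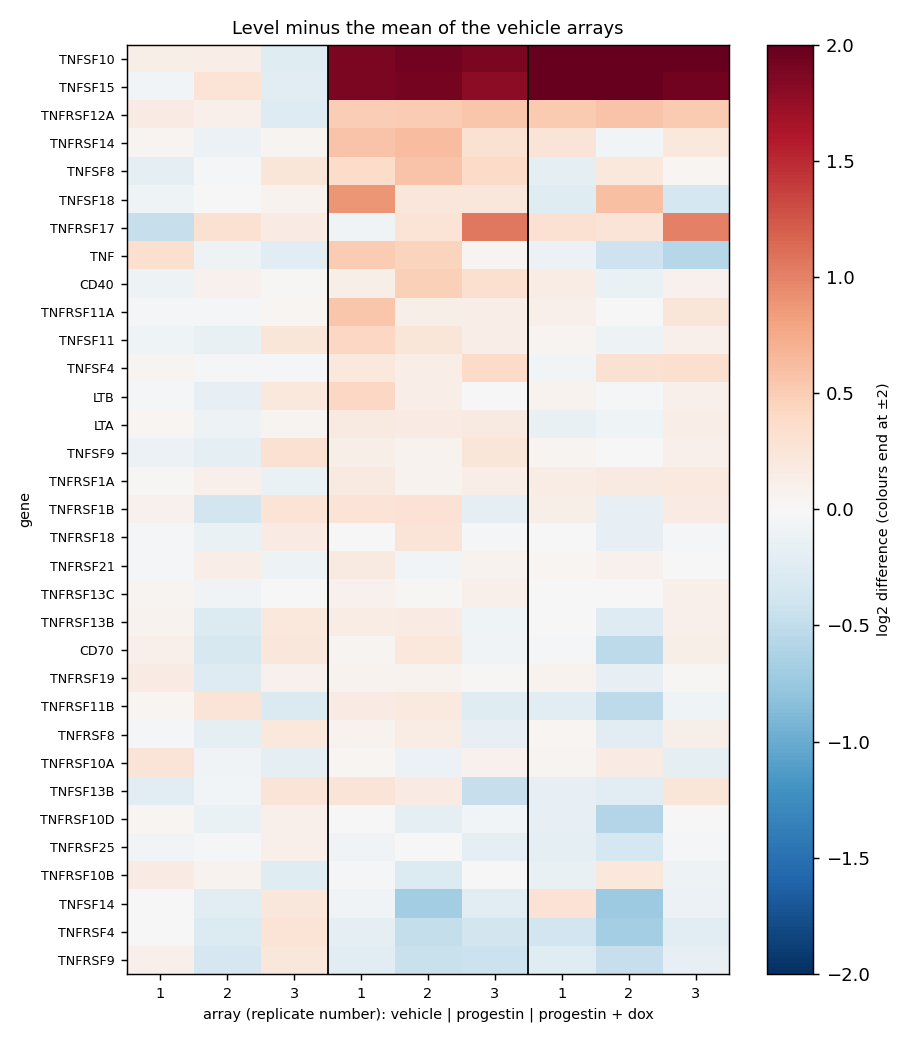
Level of each of the 33 members on each of the 9 arrays minus the mean of the vehicle arrays (log2, colour; colours end at 2 in either direction), ordered by the change with progestin. TNFSF10 and TNFSF15 are dark on all 6 progestin-treated arrays; TNFRSF14 and TNFSF8 are pale again on the arrays with doxycycline.

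Progestin plus doxycycline against vehicle joins the progestin response with any effect of doxycycline and the hairpin, since vehicle cells had no doxycycline. These parts cannot be told apart here. The comparison shares its vehicle arrays with the first one. ELF5 was lower with progestin plus doxycycline than with progestin alone but lay above vehicle by 0.24 (SE 0.08, adjusted p = 0.0502, not called). Of the 33 members 3 rose and 0 fell (9.09%, against 28.1% of all probe sets, 15.6% higher and 12.5% lower). TNFSF10 changed by 2.09 (SE 0.11, adjusted p = 3.93e-06), TNFSF15 by 1.99 (SE 0.12, adjusted p = 7.67e-06) and TNFRSF12A by 0.54 (SE 0.11, adjusted p = 0.00686). The changes of TNFRSF14 and TNFSF8 were 0.14 and 0.02 (SE 0.12 and 0.14), and that of TNFSF11 was 0.02 (SE 0.12). TNFRSF14 and TNFSF8 were thus called with progestin alone and not here, but the difference between the 2 progestin groups was itself not called for either gene. Arrays of the 2 groups did not overlap for 4 members, all above vehicle (12.1%, against 23.5% of all probe sets above and 18.4% below): the 3 called genes and TNFRSF1A.

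With quantile normalization TNFRSF9 and TNFRSF4 (the costimulatory receptor OX40) were called lower as well, giving 5 calls. FAS, not called with progestin alone, stood at 7.82 ± 0.117 with doxycycline added (mean ± SD, n = 3), a change from vehicle of 0.40 (SE 0.09, adjusted p = 0.0132). Its change between the 2 progestin groups was 0.19 (SE 0.09, adjusted p = 0.406). Of the 17 adaptor and death signalling genes 8 rose and 1 fell in this comparison (52.9% called, against 28.1% of all probe sets). CFLAR had a change of 0.94 (SE 0.09) and BID of -0.42 (SE 0.08). XIAP and TRAF6, at 0.41 and 0.38 (SE 0.10 each), were called here and not with progestin alone, and their changes with doxycycline were 0.13 and 0.22 (adjusted p = 0.628 and 0.391). The XIAP call was lost without vehicle replicate 2 or progestin plus doxycycline replicate 2 or 3 (adjusted p up to 0.0627), and the TRAF6 call without vehicle replicate 1 or 3 or progestin plus doxycycline replicate 2 or 3 (up to 0.0869). ADAM10, ADAM17 and RHBDF2 had changes from vehicle of -0.24, -0.40 and -0.71 (SE 0.07, 0.11 and 0.13), and RHBDF1 was higher by 0.44 (SE 0.07). These 4 calls became 2, those of RHBDF1 and RHBDF2, when vehicle replicate 1 or 2 was left out, and likewise for replicates 1 and 3 of progestin plus doxycycline.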

How the data were processed

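RNA of 9 samples was measured on Affymetrix Human Gene 1.0 ST arrays. The authors deposited 1 value per probe set and array, taken here as log2 from the range of the values: the lowest, -16.6096, is the same on all 9 arrays. Of tools, limma, PLIER, Affymetrix Expression Console and Affymetrix Power Tools appear in the submitters' processing notes, without version or role. The sources used here do not say how background was corrected or arrays were normalized. The table held 33297 probe sets: 19460 with 1 gene symbol in the platform annotation, 1754 with several and 12083 with none. All 33 members matched their symbol in a RefSeq gene table (GRCh38.p14).

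The 21214 probe sets with a symbol were fitted in R 4.3.3 with limma 3.58.1, as group means on the 9 arrays, followed by eBayes and Benjamini-Hochberg adjustment over all of them; the fit was tested on simulated data. The number of arrays limits the precision (median SE of a change 0.12). SE and 95% intervals come from this fit. Members, gene lists, motifs, tests and alternatives were chosen with earlier results of these data known, so the counts of the lists are descriptions. Named are ELF5, TNFSF11, TNFSF10, each called member, members whose groups did not overlap with a change of at least 0.5, partners of called members, and up to 3 genes of each other list with the smallest p with progestin; other genes named to complete a short count were chosen after their values were seen. Alternatives were quantile normalization, removal of the dimmest 25% of probe sets, 16 added to the linear values, a variance trend with robust estimation, a fit of the 2 groups alone, the replicate number as a block, the mean of a gene's probe sets, and leaving out each array.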

Additional observations from a re-analysis of the deposited data

How the results depend on the processing

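The counts of called members were 4 to 7 for progestin against vehicle and 0 for doxycycline added to progestin over all 16 alternatives. For progestin plus doxycycline against vehicle the count was 3, rose to 5 with quantile normalization and to 5 with the replicate block, and was 3 to 4 with any 1 array left out. TNFSF10, TNFSF15 and TNFRSF12A were called in both comparisons with vehicle under every alternative. The ELF5 drop of -0.87 lost its call with the 2 groups alone (-0.87, adjusted p = 0.175) and with the replicate block (-0.87, adjusted p = 0.203), and lay between -0.89 and -0.83 with an array left out. The remaining ELF5 rise over vehicle was called when the dimmest 25% were removed (0.24), when 16 was added (0.24), and with quantile normalization (0.24), with a variance trend and robust estimation (0.24) and with the mean of a gene's probe sets (0.24), and lay between 0.18 and 0.28 with an array left out. Uncalled changes near 0 changed sign: with quantile normalization TNFSF11 and TNFSF8 against vehicle in the doxycycline group were both at -0.04 and TNFRSF12A with doxycycline at -0.04. With an array left out the first 2 lay between -0.05 and 0.14 and between -0.08 and 0.14. The cause was not tested. Arrays with the same replicate number did not deviate together throughout (correlations from -0.262 to 0.48 over 9 pairs). Pairs with different numbers had correlations from -0.507 to 0.284 (18 pairs). Between vehicle and progestin plus doxycycline, same-number correlations were -0.104, 0.48 and 0.464 for replicates 1, 2 and 3, the last 2 being the highest of all pairs. Because 4 of 9 arrays correlated best with their own number, the numbers were not taken to pair the arrays. The replicate block was kept as an alternative. The 7 members among the dimmest 25% were not tested under that filter, and levels that low limit what can be said of them.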
